A study of Mus musculus with 14 samples.

Results

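Gdf9, Bmp15, Bmp6 and Fgf8 encode the growth factors through which a mouse oocyte acts on the granulosa and cumulus cells around it. They were taken by gene symbol from the deposited count tables, and each of the 4 was listed among the 18076 genes of the germinal vesicle (GV) table and among the 16903 genes of the ovulated table. RNA had been measured in 14 SMART-Seq2 libraries of mouse oocytes. Ovulated oocytes, which have resumed meiosis and left the follicle, gave 3 CKO and 3 WT libraries. GV oocytes, which still have the large nucleus of prophase arrest, gave 4 CKO and 4 WT libraries. Every group carried floxed Clpx (Clpxfl/fl in the genotype labels of all 14 libraries, although the titles of the ovulated WT libraries write Clpxfl/f), and the CKO groups also carried Zp3-Cre, while the WT groups had the floxed gene without Cre. The Zp3 promoter drives Cre in growing oocytes, so that Clpx, the gene of a mitochondrial unfoldase, is deleted in the oocyte itself. The study asked what oocytes lose without CLPX, and the values here describe mRNA in the oocyte, not the secreted proteins. The labels call the samples single cells and give no age, no number of oocytes or animals per library and no batch, so the p-values below measure the spread between libraries, which may be technical.

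GDF9, BMP15 and BMP6 belong to the TGF-beta superfamily. Their ligands bind pairs of type 1 and type 2 serine-threonine kinase receptors on the follicle cells, and the receptors phosphorylate SMAD proteins that enter the nucleus. GDF9 and BMP15 share the type 2 receptor BMPR2, with TGFBR1 (ALK5) for GDF9 and BMPR1B (ALK6) for BMP15, and both can join in a heterodimer. GDF9 signals mainly through SMAD2 and SMAD3, and BMP15 and BMP6 mainly through SMAD1, SMAD5 and SMAD9. FGF8 binds receptor tyrosine kinases of the FGFR family and, together with BMP15, promotes glycolysis in cumulus cells. Oocytes stop transcription before they resume meiosis, so that their later supply of such proteins depends on stored mRNA, whose poly(A) tails are shortened or extended during maturation.

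The annotated 3′ ends of the mRNAs are shown as background on stored messages, and their link to the stage differences was not tested. They were read from the GENCODE M21 transcripts (mouse build GRCm38, which is mm10), each 5′ to 3′ in the direction of the transcript, with T for U. Capitals mark the poly(A) signal AATAAA or the element TTTTAT, a common form of the cytoplasmic polyadenylation element that CPEB1 binds.
Gdf9: ggTTTTATgtgacggaagAATAAActgttg
Bmp15: attttcttaatcttaaagAATAAAttttca
Bmp6, upstream site: attgtctaTTTTATatccattttgctgtaa
Bmp6, end: ctttaaaaaaaaaaagtttatttagaaagt
Fgf8: acaaaagagaggctctatttttgtattcca
The Gdf9 stretch is chr11:53437864-53437893 on the plus strand and ends 11 bases before the transcript does. The Bmp15 stretch is chrX:6314123-6314152 on the minus strand and ends 16 bases before the transcript end. The Bmp6 stretches are chr13:38500216-38500245 and chr13:38500273-38500302 on the plus strand, and the second is the end of the transcript. The Fgf8 stretch is chr19:45736798-45736827 on the minus strand and is the end of the transcript. All lie in the 3′ UTR.

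These ends differ. Within the last 100 bases, only Gdf9 held both AATAAA, which starts its last 23 bases, and TTTTAT, which starts its last 39 bases. Bmp15 held AATAAA there and TTTTAT only farther upstream, with 3 matches in the 1523 bases of its whole 3′ UTR. Bmp6 held TTTTAT in its last 100 bases and no AATAAA. Fgf8, with the shortest 3′ UTR at 192 bases, held none of the motifs searched anywhere in it. The search ran on the transcript strand. It covered the signal AATAAA and its variant written ATTAAA, the element TTTTAT and its longer form TTTTAAT, and the Pumilio motif TGTANATA. No capitals of 1 motif overlap those of another in the printed stretches. Among 19369 mouse genes with a 3′ UTR of at least 100 bases, 64.9% held AATAAA and 13.9% held TTTTAT in that window. A match is a description of letters, and no binding was measured.

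The genes lie on 4 chromosomes. Gdf9 has 2 exons at chr11:53431023-53437904 (plus strand), Bmp15 has 2 exons at chrX:6314107-6320721 (minus), Bmp6 has 7 exons at chr13:38345107-38500302 (plus), and Fgf8 has 6 exons at chr19:45736798-45742915 (minus). Bmp6 shares 224 of its 3900 exonic bases with Txndc5 on the other strand. The gene extents of Gdf9 and Uqcrq overlap by 58 bases in RefSeq. The counting strand is not given in the sources used here, so reads in those stretches cannot be assigned with certainty.

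The libraries held between 25086506 and 28471453 expected counts each. Clpx, the targeted gene, was 41.8-fold lower in CKO than in WT ovulated oocytes (log2 fold change −5.39, SE 0.441, edgeR adjusted p = 0.00123) and 40.2-fold lower in CKO than in WT GV oocytes (−5.33, SE 0.305, edgeR adjusted p = 6.48e-06), as the labels say. The oocyte label held in all libraries: the summed level of 10 oocyte markers was between 7535 and 8830 FPKM in ovulated CKO, 6049 and 11589 in ovulated WT, 14236 and 21777 in GV CKO and 16422 and 19200 in GV WT libraries. In ovulated libraries most of that sum was Oosp1, with a mean of 5460 FPKM in CKO and 7263 FPKM in WT. All 10 markers had a mean of at least 1 FPKM in every group. The 14 granulosa and cumulus markers summed to 29.8 to 43.8 FPKM in ovulated CKO, 29.0 to 59.2 in ovulated WT, 12.2 to 27.7 in GV CKO and 18.2 to 28.9 in GV WT libraries, and most of that was Cyp19a1. The 10 markers of theca, stroma, endothelium and blood summed to 23.6 to 40.4 FPKM in ovulated and 7.08 to 17.4 FPKM in GV libraries, and their part in the stage differences was not tested. One library affects the genotype comparison in ovulated oocytes: without CKO replicate 3 the number of genes called there is 201, against 1 with it.

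Compared per transcript length, in the FPKM values that the authors deposited, Gdf9 was among the most abundant mRNAs of every library. It ranked between 11th and 19th of all genes in ovulated libraries and between 5th and 20th in GV libraries. Its mean level was 4392 ± 503 FPKM in ovulated CKO and 4646 ± 1564 in ovulated WT (SD, n = 3 each), and 6074 ± 1777 in GV CKO and 6381 ± 1047 in GV WT (SD, n = 4 each). Bmp15 came next, with 761 ± 198 FPKM in ovulated CKO and 491 ± 78.8 in ovulated WT, and 1272 ± 287 in GV CKO and 1180 ± 204 in GV WT. Bmp6 and Fgf8 lay more than an order of magnitude below. Bmp6 stood at 25.2 ± 2.61 FPKM in ovulated CKO and 17.4 ± 2.87 in ovulated WT, and at 15.1 ± 9.06 in GV CKO and 15.4 ± 7.35 in GV WT. Fgf8 stood at 6.43 ± 4.37 FPKM in ovulated CKO and 1.80 ± 1.10 in ovulated WT, and at 43.1 ± 20.7 in GV CKO and 63.5 ± 16.6 in GV WT.

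The order of the lower pair turned between the stages. In both ovulated groups it was Gdf9, Bmp15, Bmp6, Fgf8, and the libraries of neighbouring genes did not overlap. In both GV groups it was Gdf9, Bmp15, Fgf8, Bmp6. There the mean Fgf8 level was 4.12 times that of Bmp6 in WT, with no overlap, and 2.85 times in CKO, where the libraries of both genes overlapped. The ratio of Bmp6 to Fgf8 FPKM within a library was 2.30, 3.64 and 15.8 in ovulated CKO and 32.4, 7.09 and 6.71 in ovulated WT libraries. It was 0.373, 0.356, 0.693 and 0.119 in GV CKO and 0.143, 0.322, 0.425 and 0.135 in GV WT libraries. All 6 ovulated values lie above 1 and all 8 GV values below it.

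**Figure D1:**
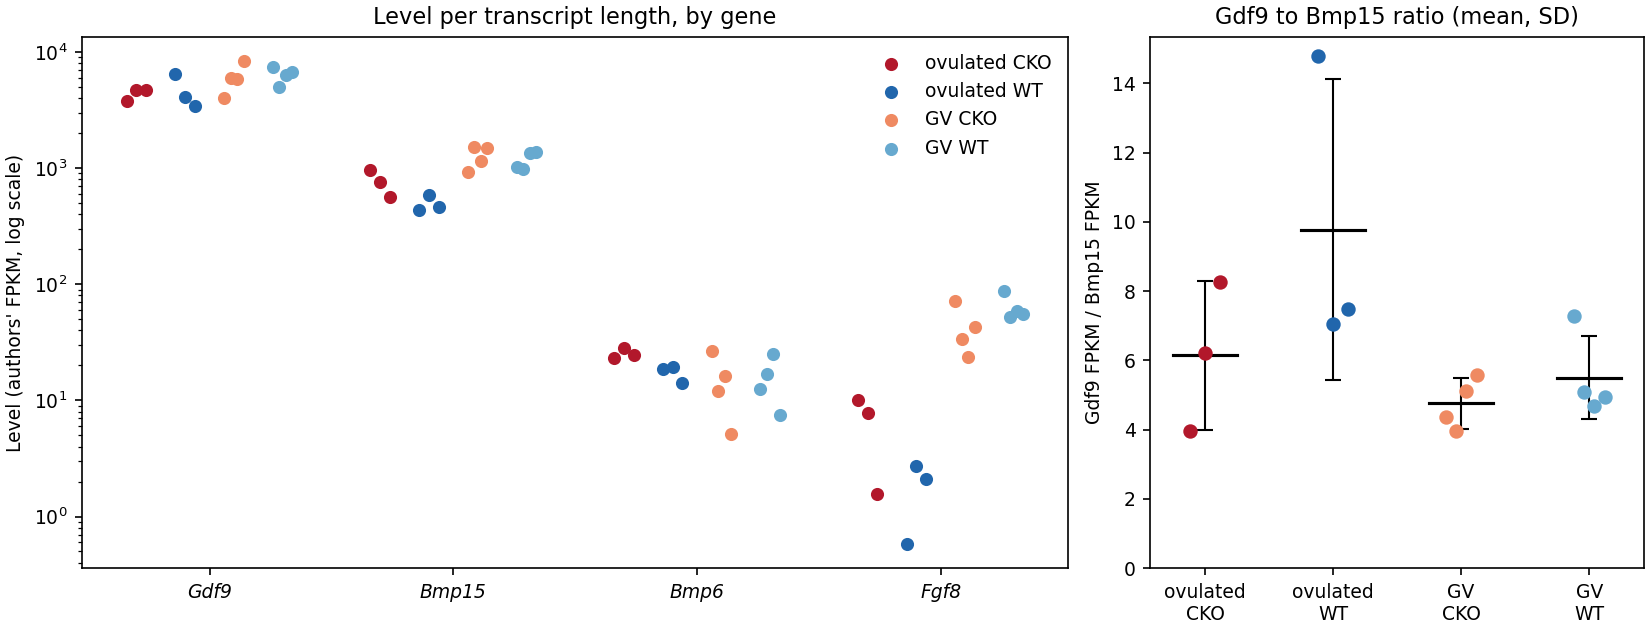
Left, level of each growth factor in each library (authors' FPKM, log axis) for ovulated CKO, ovulated WT, GV CKO and GV WT oocytes. Right, the ratio of Gdf9 to Bmp15 FPKM in each library, with group mean and SD. Gdf9 lies highest in every library, Fgf8 lies below Bmp6 in the ovulated groups, and the ovulated WT replicate with a ratio of 14.8 stands above the others.

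The stage comparison in WT oocytes asked how each message differed once the oocyte had ovulated. Fgf8 was 41.8-fold lower and Bmp15 3.13-fold lower in ovulated than in GV oocytes, and both passed the test. Gdf9 was lower by less than that and missed the threshold, and the Bmp6 levels lay close together. Thus 2 of the 4 growth factors passed, both lower, where 63.7% of all 13158 genes tested passed in either direction and 34.0% passed as lower. Levels of 1 gene across libraries are given as CPM, counts per 1e+06 of the TMM-scaled library size, and calls are at an edgeR adjusted p below 0.05. Since CPM values are relative to the other mRNAs of a library, less RNA of a gene per oocyte and more RNA of other genes cannot be told apart. Likewise, in RNA pooled over a library, fewer cells of a type and less RNA per cell cannot be told apart. SMART-Seq2 primes at poly(A) tails, so mRNA amount and tail length cannot be told apart in any stage difference below. The stages were deposited as separate tables, and the labels give no batch. Stage and any difference in handling or processing between those tables therefore cannot be told apart either.

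Fgf8 had 0.531, 1.92 and 1.76 CPM in ovulated WT oocytes, against 70.7, 54.5, 44.8 and 66.6 CPM in GV WT oocytes. These ovulated values rest on 15, 66 and 52 expected counts, and the groups are far apart. The log2 fold change was −5.38 (SE 0.63, 95% interval −6.72 to −4.05, edgeR adjusted p = 3.92e-06), and 1.60% of the genes tested had a lower value. Bmp15 had 1211, 1236 and 1154 CPM in ovulated WT oocytes, against 2753, 3376, 3448 and 5433 CPM in GV WT oocytes. The 3 ovulated libraries were nearly level, with a coefficient of variation of 3.50%, and every one lay below every GV library. The log2 fold change was −1.64 (SE 0.355, 95% interval −2.39 to −0.89, edgeR adjusted p = 0.000754).

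Gdf9, the partner of Bmp15, had 9740, 4319 and 4753 CPM in ovulated WT oocytes, against 10879, 9335, 8791 and 14593 CPM in GV WT oocytes. Replicate 1 of the ovulated WT group lay within the GV range and the other 2 below it. The log2 fold change was −0.80 (SE 0.397, 95% interval −1.64 to 0.04, edgeR adjusted p = 0.0887). Without ovulated WT replicate 1 it was −1.25 (edgeR adjusted p = 0.0234), so the call depended on that library. Gdf9 was called under 4 of 18 alternatives, so the call depended on the tool, the filter and the replicate block as well. Bmp6 had 50.3, 39.3 and 34.0 CPM in ovulated WT oocytes, against 32.3, 55.4, 60.9 and 28.5 CPM in GV WT oocytes. The ovulated libraries lay inside the GV range (log2 fold change −0.10, 95% interval −0.87 to 0.66, edgeR adjusted p = 0.814), and the sign turned to 0.19 under scaling to total counts.

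In CKO oocytes 3 of the 4 growth factors fell between the stages, where 55.7% of all genes tested passed and 29.9% passed as lower. Fgf8 had 7.07, 4.77 and 1.21 CPM in ovulated CKO oocytes, against 69.6, 41.0, 19.9 and 56.8 CPM in GV CKO oocytes. The groups did not overlap, and the level was 10.7-fold lower (log2 fold change −3.42, SE 0.564, 95% interval −4.61 to −2.23, edgeR adjusted p = 0.000115). Bmp15 had 2225, 1600 and 1450 CPM in ovulated CKO oocytes, against 2984, 6033, 3167 and 6545 CPM in GV CKO oocytes. It was 2.66-fold lower with no overlap (−1.41, SE 0.352, 95% interval −2.16 to −0.67, edgeR adjusted p = 0.00285).

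Gdf9 had 4818, 5139 and 6558 CPM in ovulated CKO oocytes, against 7099, 13000, 8830 and 19854 CPM in GV CKO oocytes. It fell 2.22-fold (log2 fold change −1.15, SE 0.402, 95% interval −2.00 to −0.30, edgeR adjusted p = 0.0226), and the groups did not overlap. Some alternatives ended this call: scaling to total counts gave −0.48 (edgeR adjusted p = 0.127), and leaving out GV CKO replicate 4, the highest library, gave −0.68 (edgeR adjusted p = 0.134). It was also lost without GV CKO replicate 2 (edgeR adjusted p = 0.0657), without ovulated CKO replicate 1 (0.0756) and without ovulated CKO replicate 2 (0.0631). Bmp6 had 51.0, 57.1 and 60.3 CPM in ovulated CKO oocytes, against 82.9, 45.9, 43.0 and 21.5 CPM in GV CKO oocytes. Its ovulated libraries lay inside the wider GV range (log2 fold change 0.22, 95% interval −0.55 to 0.98, edgeR adjusted p = 0.628).

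By overlap of libraries, 3 of the 4 growth factors were lower without overlap in ovulated than in GV CKO oocytes, where 58.6% of all genes did not overlap in either direction. In WT oocytes 2 of the 4 were lower without overlap, where 62.3% of all genes did not overlap. Scaling to total counts moved the median of all genes up by 0.590 on the log2 scale in the CKO stage comparison and by 0.339 in the WT one. It also turned the split of calls to 4688 higher and 2258 lower in CKO, against 3397 and 3935 with TMM, and to 4471 higher and 3519 lower in WT, against 3904 and 4472 with TMM. Under that scaling Fgf8 (−2.75 in CKO, −4.98 in WT) and Bmp15 (−0.73 in CKO, −1.25 in WT) kept their direction and passed.

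**Figure D2:**
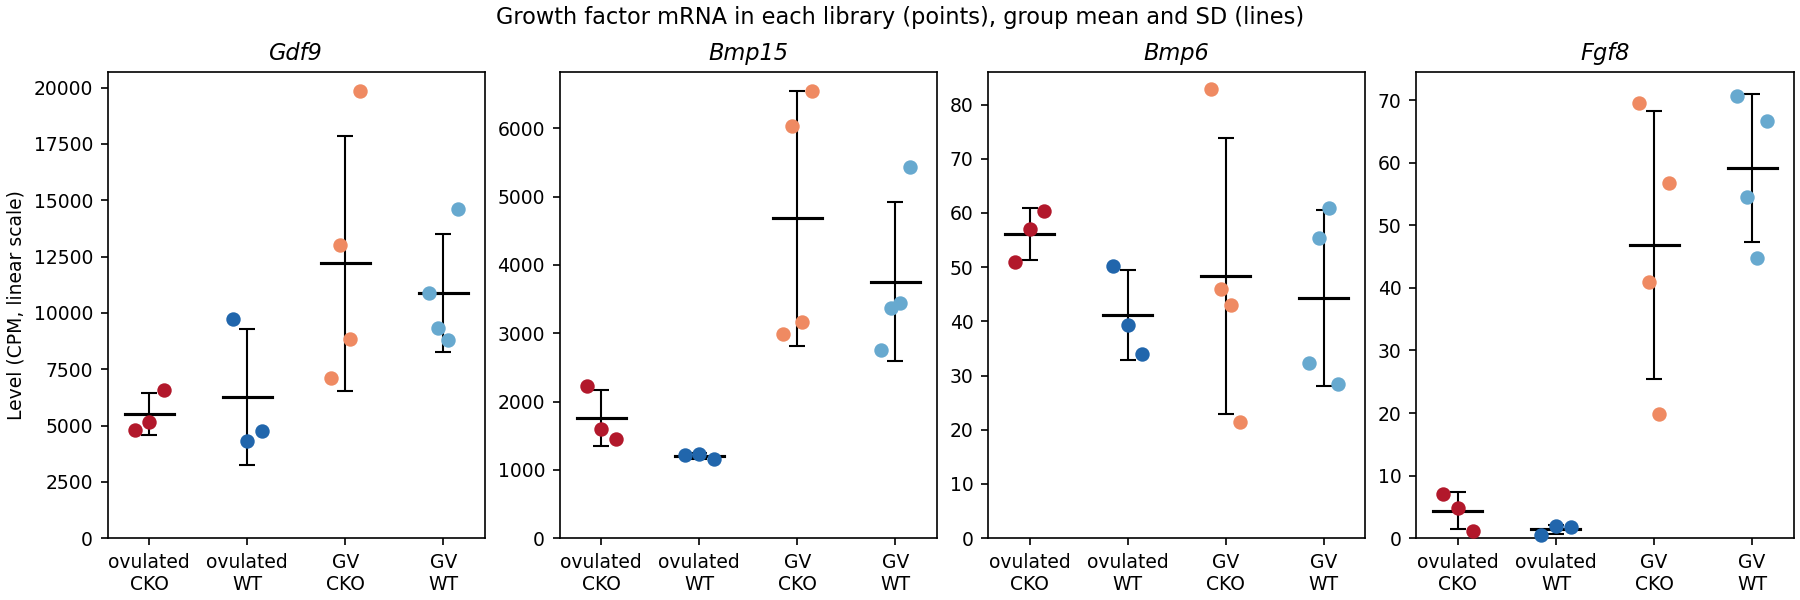
Level of Gdf9, Bmp15, Bmp6 and Fgf8 in each library (CPM after TMM scaling, linear axes that start at 0), with group mean and SD, for ovulated CKO, ovulated WT, GV CKO and GV WT oocytes. Fgf8 and Bmp15 lie lower in both ovulated groups than in the GV group of the same genotype, 1 ovulated WT library of Gdf9 (9740 CPM) reaches the GV range, and the Bmp6 groups overlap between stages.

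Loss of Clpx was compared within each stage. In ovulated oocytes none of the 4 growth factors passed, where 1 of 12044 genes tested (0.00830%) passed edgeR and 935 had an unadjusted p below 0.05. DESeq2 called 114 genes in that comparison, and none of the 4 growth factors was among them. Fgf8 showed the widest separation of means. Its 7.07, 4.77 and 1.21 CPM in ovulated CKO oocytes stand against 0.531, 1.92 and 1.76 CPM in ovulated WT oocytes, so that 2 CKO libraries lay above all WT libraries and replicate 3 among them. The log2 fold change was 1.57 (SE 0.689, 95% interval 0.06 to 3.09, unadjusted p = 0.0432, edgeR adjusted p = 0.626). Without CKO replicate 3 it was 1.96 (edgeR adjusted p = 0.164).

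Bmp15 and Bmp6 were higher in all 3 ovulated CKO libraries than in all 3 ovulated WT libraries, where 10.6% of all genes did not overlap in either direction. For Bmp15 the means were 1758 ± 411 CPM in CKO and 1201 ± 42.0 CPM in WT (SD, n = 3 each), a log2 fold change of 0.52 (95% interval −0.12 to 1.17, edgeR adjusted p = 0.706). For Bmp6 they were 56.1 ± 4.73 CPM in CKO and 41.2 ± 8.29 CPM in WT (SD, n = 3 each), a log2 fold change of 0.43 (95% interval −0.17 to 1.04, edgeR adjusted p = 0.737). The nearest libraries were close, at 51.0 CPM in CKO and 50.3 CPM in WT for Bmp6. Gdf9 averaged 5505 ± 926 CPM in ovulated CKO and 6270 ± 3012 CPM in ovulated WT oocytes (SD, n = 3 each), with overlapping libraries (−0.19, 95% interval −1.08 to 0.69, edgeR adjusted p = 0.915). Its sign turned to 0.23 without WT replicate 1.

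In GV oocytes none of the 4 passed, where 3 of 12265 genes tested (0.0245%) passed edgeR, 704 had an unadjusted p below 0.05 and DESeq2 called 39, none of them a growth factor. The CKO and WT libraries of all 4 growth factors overlapped, while 3.65% of all genes did not overlap. Gdf9 averaged 12196 ± 5674 CPM in GV CKO and 10900 ± 2616 CPM in GV WT oocytes (SD, n = 4 each), a log2 fold change of 0.17 (95% interval −0.66 to 1.00, edgeR adjusted p = 0.946). Bmp15 averaged 4682 ± 1869 CPM in GV CKO and 3752 ± 1163 CPM in GV WT oocytes (0.33, 95% interval −0.44 to 1.09, edgeR adjusted p = 0.892). Bmp6 averaged 48.3 ± 25.5 CPM in GV CKO and 44.3 ± 16.3 CPM in GV WT oocytes (0.11, 95% interval −0.66 to 0.88, edgeR adjusted p = 0.963). Fgf8 averaged 46.8 ± 21.4 CPM in GV CKO and 59.2 ± 11.8 CPM in GV WT oocytes (−0.35, 95% interval −1.03 to 0.33, edgeR adjusted p = 0.87). Under scaling to total counts, which moved the median of all genes by −0.164, Gdf9 turned to −0.07 and Bmp6 to −0.03. The intervals reach 1.00 for Gdf9 and 1.09 for Bmp15 on the side of higher levels in CKO, and −1.03 for Fgf8 on the side of lower levels, so these data do not show that the levels were equal.

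The difference of the CKO effect between the stages was tested directly. Of 13158 genes, 1 (0.00760%) passed edgeR, 1205 had an unadjusted p below 0.05, and no growth factor passed. Fgf8 had a difference of 1.96 on the log2 scale, higher relative to WT in ovulated than in GV oocytes (SE 0.722, 95% interval 0.44 to 3.49, unadjusted p = 0.0148, edgeR adjusted p = 0.407). Without ovulated CKO replicate 3 the difference for Fgf8 was 2.38 (edgeR adjusted p = 0.0391), in a fit that called 498 genes. For Gdf9, which passed between stages in CKO and not in WT oocytes, the difference of −0.35 had an edgeR adjusted p of 0.92 (95% interval −1.51 to 0.81), so its stage change is not shown to depend on the genotype. The differences for Bmp15 (0.23, edgeR adjusted p = 0.944) and Bmp6 (0.32, edgeR adjusted p = 0.921) were smaller than their standard errors.

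**Figure D3:**
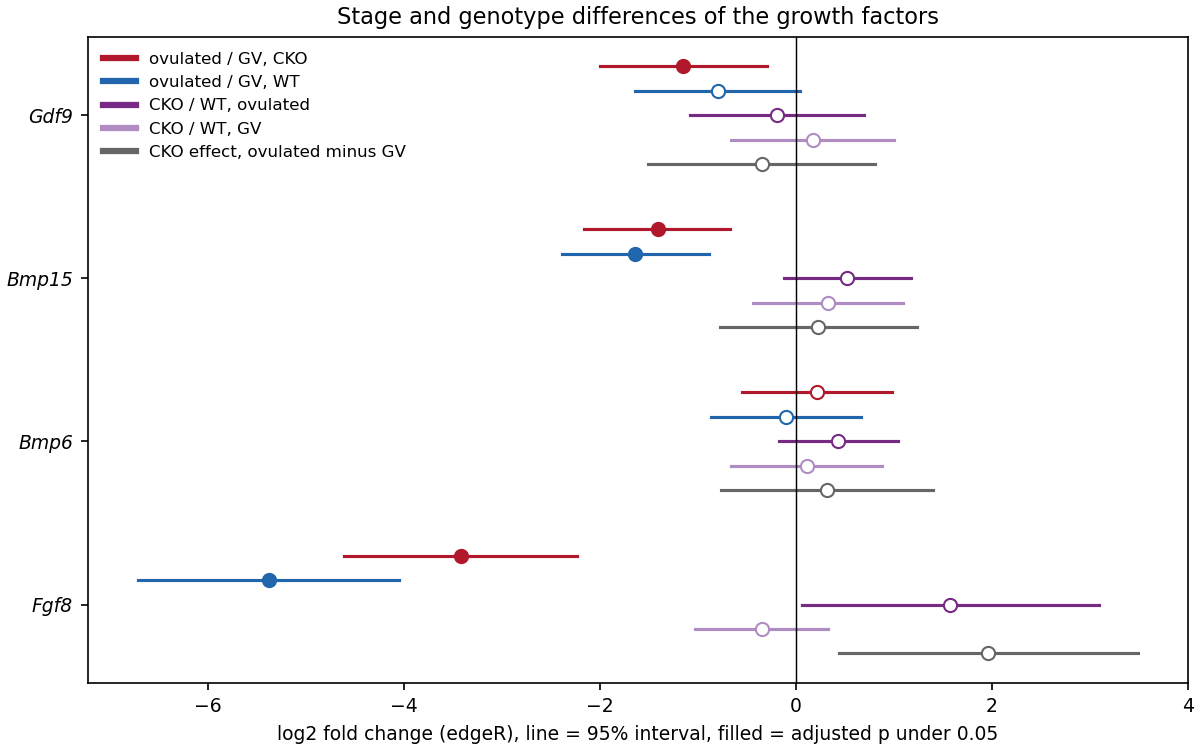
Log2 fold change (edgeR) with its 95% interval for each growth factor in the stage comparisons (ovulated over GV, in CKO and in WT), the genotype comparisons (CKO over WT, in ovulated and in GV oocytes) and the difference of the CKO effect between stages. Filled points passed an adjusted p of 0.05: Fgf8 and Bmp15 in both stage comparisons and Gdf9 in the one of CKO oocytes.

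GDF9 and BMP15 can act as a heterodimer, and the ratio of their messages within a library does not depend on library size. The Gdf9 to Bmp15 FPKM ratio was 3.96, 6.20 and 8.27 in ovulated CKO and 14.8, 7.06 and 7.47 in ovulated WT libraries. It was 4.36, 3.96, 5.12 and 5.59 in GV CKO and 7.28, 5.08, 4.69 and 4.94 in GV WT libraries. The means were 6.15 ± 2.16 in ovulated CKO and 9.76 ± 4.33 in ovulated WT (SD, n = 3 each), and 4.76 ± 0.735 in GV CKO and 5.50 ± 1.20 in GV WT (SD, n = 4 each). The ovulated WT mean rests on replicate 1, in which Gdf9 was high and Bmp15 was not, and without that library it was 7.26. The CKO and WT values overlapped at both stages.

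The members also differed in how far libraries of 1 group spread. The highest Gdf9 level was 2.80 times the lowest in GV CKO and 1.66 times in GV WT libraries. In both GV genotypes replicate 4 had the highest Gdf9 and Bmp15 and the lowest Bmp6 level in CPM. In the fit of the GV libraries alone, those libraries also had the smallest TMM scaling factors of their groups, 0.734 in CKO and 0.839 in WT. The CPM values come from the fit of all 14 libraries, which has its own factors. The part of scaling in this spread was not tested. As an unscaled share of all counts, Gdf9 took 0.602%, 0.701% and 0.741% in ovulated CKO and 1.01%, 0.590% and 0.551% in ovulated WT libraries. It took 0.633%, 0.940%, 0.923% and 1.30% in GV CKO and 1.16%, 0.778%, 0.987% and 1.05% in GV WT libraries.

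Profiles over the 14 libraries were compared by the root mean square difference of log2 CPM, each gene centred on its own mean, over 6577 genes with a mean of at least 10 CPM. Gdf9 and Bmp15 were closest among the 4, at 0.49, against 0.98 for Gdf9 and Bmp6 and 2.53 for Bmp6 and Fgf8. The median over all genes compared was 1.01 for Gdf9, 1.12 for Bmp15, 0.83 for Bmp6 and 2.52 for Fgf8. The 0.98 is thus near the median for Gdf9, and the 2.53 near that for Fgf8. The genes most like Gdf9 were Fbxw22 (0.24), Chmp3 (0.28) and Fbxw14 (0.28). Those most like Bmp15 were Tpgs2 (0.20), Fbxw19 (0.24) and Vps26a (0.24). Fbxw14, Fbxw19 and Fbxw22 are members of a family of near-identical F-box genes, so their counts may be split uncertainly. Bmp6 was most like Med23 (0.22), Pank2 (0.22) and Cand1 (0.24), and Fgf8 most like Dmap1 (0.31), Cyth2 (0.36) and Zfand2b (0.37). For scale, Dmap1 averaged 5.59 CPM in ovulated CKO and 2.78 in ovulated WT libraries, and 65.0 in GV CKO and 75.8 in GV WT libraries.

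The rest of both pathways was followed through lists of ligands, receptors and signal carriers. None of their members passed in either genotype comparison or in the difference between stages with edgeR. In ovulated oocytes DESeq2 called the transcription factor gene Figla and the oocyte markers Zp2 and Zp3 as higher in CKO, and edgeR called the same 3 genes without CKO replicate 3. Without that library edgeR also called Figla and Zp3 for the difference between stages. Between stages many list members differed. Of all genes tested, 25.8% passed as higher in ovulated than GV oocytes in CKO and 29.7% in WT. The share that passed as lower was 29.9% in CKO and 34.0% in WT. The median log2 fold change of all genes was −0.14 in CKO and −0.08 in WT.

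Among other ligands of the TGF-beta family, 1 rose and 1 fell of 6 tested in CKO oocytes, and 1 rose and 2 fell in WT oocytes. Over all genes, 25.8% passed as higher and 29.9% as lower in CKO, and 29.7% and 34.0% in WT. Tgfb2 and Bmp5 were the most abundant of these other ligands, and per length both lay above Bmp6 in every group mean. Tgfb2 averaged 163 ± 33.8 FPKM in ovulated CKO and 192 ± 67.8 in ovulated WT (SD, n = 3 each), and 109 ± 12.8 in GV CKO and 95.6 ± 9.04 in GV WT oocytes (SD, n = 4 each). Bmp5 rose in ovulated against GV oocytes, 1.82-fold in CKO (edgeR adjusted p = 0.03) and 2.72-fold in WT (edgeR adjusted p = 0.000953). Without ovulated CKO replicate 3 the Bmp5 call in CKO was lost (log2 fold change 0.59, edgeR adjusted p = 0.156). Tgfb3 fell 5.64-fold in CKO (edgeR adjusted p = 3.45e-05) and 8.88-fold in WT oocytes (edgeR adjusted p = 3.67e-06). Bmp7 passed as lower in WT oocytes (edgeR adjusted p = 0.00359), with mean levels of at most 0.177 FPKM in every group.

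Other FGF ligands were low. Fgf9 rose 2.56-fold in CKO (edgeR adjusted p = 0.00014) and 2.48-fold in WT (edgeR adjusted p = 0.000118), with 7.76 ± 1.03 FPKM in ovulated CKO and 7.67 ± 2.47 in ovulated WT (SD, n = 3 each), and 2.03 ± 0.54 in GV CKO and 2.43 ± 0.644 in GV WT oocytes (SD, n = 4 each). In the ovulated group means Fgf9 stood above Fgf8 per length, within the spread in CKO and beyond it in WT oocytes. Fgf1 also rose in both genotypes, 2.36-fold in CKO and 1.69-fold in WT. The WT call of Fgf1 was lost without GV WT replicate 1 or 4 or ovulated WT replicate 1 or 2 (log2 fold change 0.52 to 0.75, edgeR adjusted p 0.074 to 0.18), and in limma. Fgf7, the most abundant other FGF ligand in GV oocytes, did not pass (log2 fold change 0.32 in CKO and 0.24 in WT), and Fgf10 had −0.69 in CKO (edgeR adjusted p = 0.12) and passed as lower in WT with −1.10 (edgeR adjusted p = 0.0172). The WT call of Fgf10 was lost under scaling to total counts (−0.79, edgeR adjusted p = 0.134) and without ovulated WT replicate 2 (−0.84, edgeR adjusted p = 0.0604), and the difference between genotypes was 0.41 (edgeR adjusted p = 0.894).

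The receptor mRNAs here were measured in oocyte libraries, while the ligands act on receptors of the follicle cells. Most were higher in ovulated oocytes, unlike Fgf8 and Bmp15, as relative levels in which mRNA amount and poly(A) tail length cannot be told apart. A link between ligand and receptor levels was not tested. Of 9 receptors of the TGF-beta family tested, 7 rose and none fell in CKO, and 6 rose and none fell in WT oocytes. Their median log2 fold change was 1.51 in CKO and 1.38 in WT. Among all genes tested, 25.8% passed as higher in CKO and 29.7% in WT. Bmpr2, the type 2 receptor of GDF9 and BMP15, rose 3.34-fold in CKO (edgeR adjusted p = 0.00038) and 4.06-fold in WT (edgeR adjusted p = 7.55e-05). Bmpr1b, the type 1 receptor of BMP15 and the most abundant of the list, had 63.8 ± 0.67 FPKM in ovulated CKO and 52.6 ± 10.1 in ovulated WT (SD, n = 3 each), and 16.4 ± 6.21 in GV CKO and 16.2 ± 4.72 in GV WT (SD, n = 4 each). Tgfbr1, the type 1 receptor of GDF9, rose 2.86-fold in CKO and 3.09-fold in WT. The activin receptor genes Acvr2b and Acvr1b and the co-receptor gene Tgfbr3 also rose in both genotypes. Acvr1 rose 3.47-fold in CKO (edgeR adjusted p = 0.00188) and had a log2 fold change of 0.88 in WT (edgeR adjusted p = 0.0746), where scaling to total counts and DESeq2 called it. The difference for Acvr1 between genotypes had an edgeR adjusted p of 0.714. Bmpr1a and Acvr2a did not pass in either genotype.

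Both FGF receptor genes that could be tested rose, where 25.8% of all genes passed as higher in CKO and 29.7% in WT. Fgfr2 rose 2.47-fold in CKO (edgeR adjusted p = 0.000229) and 1.81-fold in WT (edgeR adjusted p = 0.00444), and Fgfr1 rose 2.70-fold in CKO and 2.48-fold in WT. Their levels were low: Fgfr2 averaged 14.0 ± 1.06 FPKM in ovulated CKO and 9.50 ± 1.77 in ovulated WT (SD, n = 3 each), and 3.78 ± 1.43 in GV CKO and 4.06 ± 0.721 in GV WT (SD, n = 4 each). The counts of receptors that rose were the same or higher under scaling to total counts, DESeq2 size factors and DESeq2, and in CKO oocytes the same without ovulated CKO replicate 3.

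Of 6 SMAD genes tested, Smad1, Smad3 and Smad4 rose in both genotypes and none fell. The share of all genes that passed as higher was 25.8% in CKO and 29.7% in WT. Smad3, a carrier of the GDF9 signal, rose 3.44-fold in CKO (edgeR adjusted p = 0.00041) and 2.81-fold in WT (edgeR adjusted p = 0.00125). Smad1 rose 3.38-fold in CKO and 3.82-fold in WT, and the shared partner Smad4 rose 3.19-fold in CKO and 3.22-fold in WT. Smad2, the second most abundant of the list in GV oocytes, did not pass (log2 fold change −0.24 in CKO and −0.40 in WT).

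**Figure D4:**
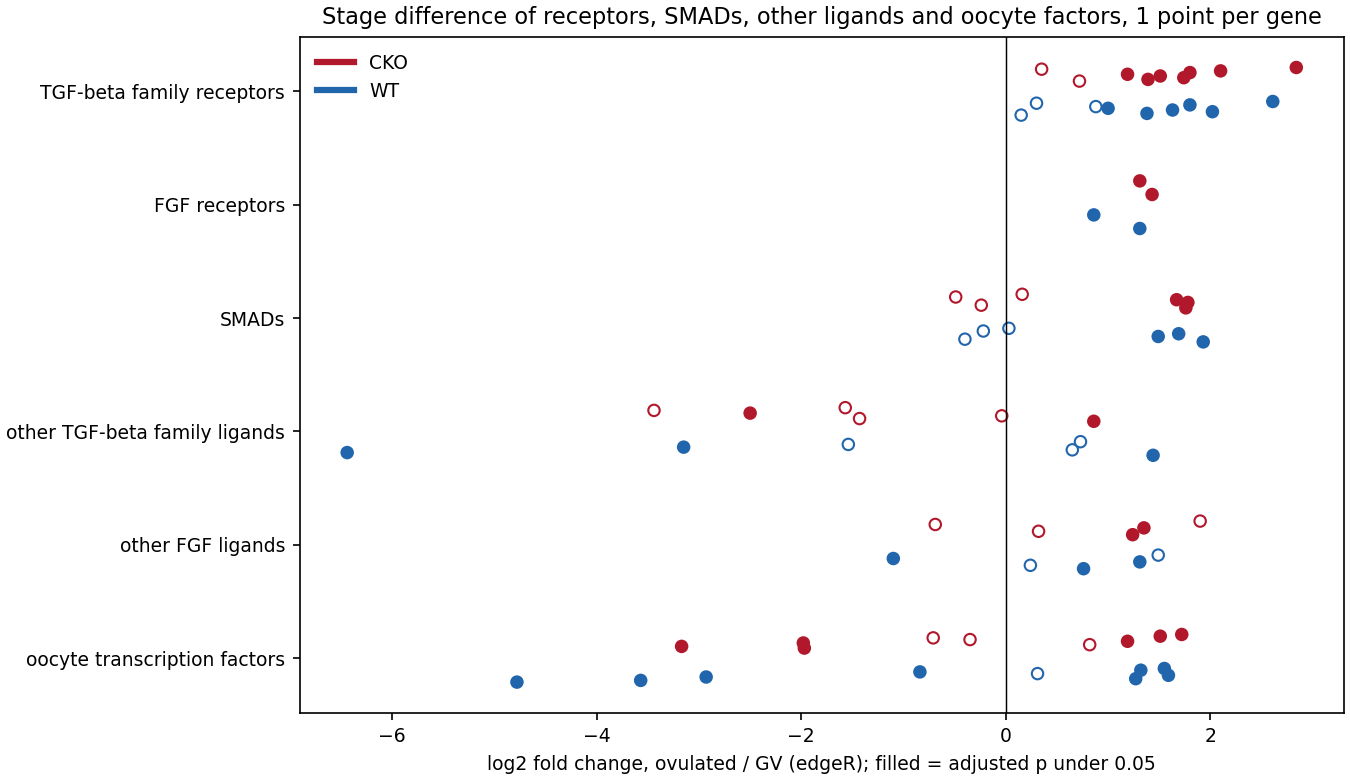
Log2 fold change (edgeR) of ovulated over GV oocytes for receptors, SMADs, other ligands and oocyte transcription factors, 1 point per gene, in CKO (upper row of each list) and WT (lower row). Filled points passed an adjusted p of 0.05. All 9 receptors of the TGF-beta family lie to the right of 0 in both genotypes, while the oocyte transcription factors lie on both sides.

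Genes that act before or against the ligands moved both ways, as genes at large did. In CKO 25.8% of all genes passed as higher and 29.9% as lower, and in WT 29.7% and 34.0%. Furin, which encodes a convertase that cleaves TGF-beta family precursors, rose 6.85-fold in CKO (edgeR adjusted p = 9.43e-06) and 7.47-fold in WT oocytes (edgeR adjusted p = 3.13e-06). Pcsk6, another convertase, fell 2.53-fold in CKO and 3.24-fold in WT, and scaling to total counts ended its call in CKO (log2 fold change −0.73, edgeR adjusted p = 0.203). Ltbp2, a latent TGF-beta binding protein family gene, fell 18.9-fold in CKO and 24.3-fold in WT. Of the whole processing list of 9 tested, 3 rose and 2 fell in CKO, and 2 rose and 2 fell in WT. Among 6 extracellular antagonists tested, 1 rose and 1 fell in CKO and 2 rose and 1 fell in WT. Fstl1, a follistatin-like gene, rose in both genotypes (log2 fold change 1.20 in CKO and 1.83 in WT), and Bambi, which encodes a decoy receptor, fell in both (−1.96 in CKO and −4.29 in WT). Both CKO calls were lost without ovulated CKO replicate 3 (edgeR adjusted p = 0.0652 for Fstl1 and 0.0918 for Bambi). The CKO call of Bambi was also lost without ovulated CKO replicate 2 or GV CKO replicate 2, 3 or 4 (edgeR adjusted p 0.0541 to 0.18) and under scaling to total counts (−1.33, edgeR adjusted p = 0.176). It held in 7 of 15 alternatives. Bambi was low, with means of 0.203 FPKM in ovulated CKO and 0.05 in ovulated WT, and 0.625 in GV CKO and 0.82 in GV WT. No ovulated WT library had more than 7 counts of it. Among 5 inhibitors of FGF signalling tested, 1 rose and 2 fell in CKO and 1 rose and 1 fell in WT. Spry1 fell 5.09-fold in CKO and 5.83-fold in WT, and Spred1 rose 3.25-fold in CKO and 3.41-fold in WT, while Spry4, the most abundant of that list in GV oocytes, did not pass (−0.18 in CKO and −0.48 in WT).

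The transcription factors that oocytes use for growth-stage genes split into both directions. NOBOX and FIGLA are required for oocyte gene programmes that include Gdf9 and the zona pellucida genes. Nobox fell 8.98-fold in CKO (edgeR adjusted p = 1.94e-05) and 11.8-fold in WT (edgeR adjusted p = 4.14e-06). Lhx8 fell 3.96-fold in CKO (edgeR adjusted p = 0.000689) and 7.61-fold in WT (edgeR adjusted p = 2.59e-05). Figla fell 3.92-fold in CKO (edgeR adjusted p = 0.0116) and 27.6-fold in WT (edgeR adjusted p = 3.29e-05), and lost its call in CKO under scaling to total counts. Taf4b, Foxo3 and Nr6a1 rose in both genotypes. In all, 3 of 9 rose and 3 fell in CKO, and 4 rose and 4 fell in WT oocytes. Of all genes tested, 25.8% passed as higher and 29.9% as lower in CKO, and 29.7% and 34.0% in WT. The split in CKO was thus near that of all genes.

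The cumulus expansion genes are induced by GDF9 and related signals in cumulus cells, and oocyte libraries can hold RNA of attached cells. Of 5 tested, 1 rose and 1 fell in each genotype. Tnfaip6 was not listed for GV oocytes and so was not tested between stages. It spanned 0 to 9.97 FPKM in ovulated WT libraries (at most 357 counts) and 0 to 1.22 FPKM in ovulated CKO libraries. Fst spanned 0 to 2.55 FPKM in ovulated WT and 0 to 0.58 FPKM in ovulated CKO libraries, while Ptx3 reached at most 0.09 FPKM. The part of attached cells in this spread was not tested. Egfr fell 3.41-fold in CKO (edgeR adjusted p = 3.36e-05) and 6.24-fold in WT (edgeR adjusted p = 1.15e-06), and these calls held with each library left out. Has2 had at most 2 counts in GV CKO and 3 in GV WT libraries, against 16 in ovulated CKO and 13 in ovulated WT libraries. It therefore passed the filter on low counts only through ovulated libraries, which favours a call as higher. Has2 was called higher in CKO oocytes (log2 fold change 2.53). That call was lost without ovulated CKO replicate 2 or 3 or GV CKO replicate 3 or 4 (2.31 to 2.36, edgeR adjusted p 0.0566 to 0.0783). Ptgs2 passed as higher in WT oocytes (3.88), with at most 4 counts in GV WT and 71 in ovulated WT libraries. It lost its call without ovulated WT replicate 3 (2.56, edgeR adjusted p = 0.109). Of the oocyte markers themselves, 7 of 10 fell and none rose in CKO, and 7 fell and 1 rose in WT oocytes. Of all genes tested, 29.9% passed as lower in CKO and 34.0% in WT. Zp3, the gene of a zona pellucida protein whose promoter drives the Cre, fell 15.6-fold in CKO and 41.6-fold in WT. Of the 9 granulosa and cumulus markers tested, 2 rose and 3 fell in CKO, and 2 rose and 1 fell in WT. Without ovulated CKO replicate 3 none rose and 2 fell in CKO, and under scaling to total counts 3 rose and 2 fell. Of the 3 markers of theca, stroma, endothelium and blood tested, 1 rose in CKO and 2 rose in WT, where neither Pecam1 nor Dcn passed without ovulated WT replicate 1 (edgeR adjusted p = 0.0892 for Pecam1 and 0.26 for Dcn).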

How the data were processed

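RNA-seq libraries of single-cell lysates had been made with SMART-Seq2, per the labels' protocols. That method primes at poly(A) tails, so mRNA amount and tail length cannot be told apart. The authors deposited, per stage, expected counts per gene (not scaled to library size; 14.45% to 16.32% of values per library are fractional) and FPKM values (scaled to gene length and library size by the authors). Genome build mm10 is named per the submitters' processing notes; aligner, counter and annotation are not given in the sources used here.

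Expected counts were rounded. The CKO and WT libraries of a stage were fitted alone, and stages and the difference of CKO effects in 1 fit of the 14 libraries over the genes of both tables, with edgeR 4.0.16 in R 4.3.3 (TMM scaling, genes kept by filterByExpr at 10 counts, quasi-likelihood F-test with robust estimation, Benjamini-Hochberg adjustment over all genes tested, threshold 0.05). Intervals are 95%, from the standard error and the fit's degrees of freedom. A positive log2 fold change means higher in CKO than WT, or in ovulated than GV oocytes. CPM values are counts per 1e+06 of the TMM-scaled library size, used to follow 1 gene across libraries. FPKM values compare genes. Profiles used log2 CPM with a prior count of 2. The fits were tested on simulated data in which a small set of genes was changed in 1 group. All other genes had the same mean in every group, so scaling across stages that differ widely was not tested.

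The members, lists, tests and alternatives were chosen with earlier results of these data known. The rule named the 4 growth factors everywhere, Clpx, up to 4 members per list and comparison with the smallest p among those that passed, the 2 most abundant members per list in GV oocytes and the 3 genes most like each growth factor. Some genes that the rule names are given only in counts. Alternatives were DESeq2 1.42.0, limma 3.58.1 (voom, and log2 FPKM with pseudocounts of 0.1 or 1), other scalings and filters, a replicate block and leaving out each library.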

Additional observations from a re-analysis of the deposited data

How the results depend on the processing

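Of 518 alternative values, 450 kept their direction and their side of the threshold or stayed within the spread. The calls of Bmp15 and Fgf8 between stages held under all 18 alternatives in each genotype (Bmp15 −1.61 to −0.73 in CKO and −1.78 to −1.25 in WT, Fgf8 −3.94 to −2.70 in CKO and −5.72 to −4.58 in WT). Gdf9 between stages in CKO was called under 11 of 18, and lost its call under total-count scaling (−0.48) and in limma on log2(FPKM + 0.1) and log2(FPKM + 1) (−0.43 each). Leaving out 1 library gave −1.31 to −0.68 (adjusted p 0.0177 to 0.134). In WT Gdf9 gained a call with voom (−0.87), with a mean of at least 10 CPM (−0.98) and with the replicate block (−0.85), and ranged from −1.25 to −0.56 with 1 library left out. The cause was not tested.

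Signs turned for uncalled values. The CKO effect in GV oocytes was −0.07 for Gdf9 and −0.03 for Bmp6 under total-count scaling, and −0.10 for Gdf9 in both FPKM fits, with −0.13 and −0.12 for Bmp6. With 1 library left out it ranged from −0.19 to 0.37 for Gdf9 and from −0.26 to 0.34 for Bmp6. In ovulated oocytes it ranged from −0.43 to 0.23 for Gdf9. The difference between stages for Gdf9 was 0.07 in both FPKM fits and −0.52 to 0.10 with 1 library left out, and for Fgf8 it was 1.44 to 2.38. Bmp6 between stages in WT was 0.19 under total-count scaling, 0.29 and 0.27 in the FPKM fits, and −0.25 to 0.09 with 1 library left out.

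Counts of called genes moved with the tool and with the libraries used. DESeq2 called 39 genes in GV oocytes, 114 in ovulated oocytes and 64 for the difference between stages, and the fit of 14 libraries called 64 in ovulated oocytes. For that difference voom, the 10 CPM filter, both FPKM fits and the replicate block called 0, against 1205 genes at an unadjusted p below 0.05 in edgeR. With 1 library left out the counts were 3 to 6 in GV oocytes, 1 to 201 in ovulated oocytes and 0 to 498 for the difference. The 10 CPM filter, which tests fewer genes, called 4812 in CKO and 5061 in WT between stages. With the replicate block, no other call of a growth factor changed. The labels do not say whether replicate numbers pair the libraries of a stage. Same-number correlations were −0.249, 0.196, 0.334 and 0.332 in GV and −0.235, 0.261 and −0.0195 in ovulated oocytes. Different-number correlations ran from −0.371 to 0.352 in GV and from −0.319 to 0.366 in ovulated oocytes. Pairing was not tested beyond these values. CPM by total counts gave means of 6813 for Gdf9, 2200 for Bmp15 and 69.9 for Bmp6 in ovulated CKO and 1426 for Bmp15 in ovulated WT oocytes. Gdf9 to Bmp15 ratios of counts were 3.30 in ovulated CKO, 5.22 in ovulated WT, 2.59 in GV CKO and 2.99 in GV WT, since the genes differ in length. In ovulated oocytes Fgf8 lies at 15 to 228 counts, which limits its precision.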
